A study of Mus musculus with 6 samples.

Results

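The autophagy core and receptor genes are the genes whose products build the autophagosome, load it with cargo and join it to the lysosome. A list of 37 mouse genes was taken by gene symbol from the expression table, which has 25731 rows, and 36 of them had a row of values (Tfeb was not analysed here). RNA was measured in 6 pools of 13 zygotes each, made by fertilizing B6C3F1 oocytes with CD1 sperm. All 6 pools had been microinjected 15 h after hCG with mRNA of mCherry-Trim21 at 0.2 mg/mL and a dextran labelled with Oregon green at 0.02 mg/mL, and all were lysed 10 h later at the pronuclear stage. The hour and the concentrations are those of the labels, and the paper gives slightly different ones. In the 3 pools called ZP3 Trim-away the cocktail also held anti-ZP3 antibody at 1 mg/mL, and in the 3 buffer control pools it held the buffer of that antibody. TRIM21 is a ubiquitin ligase that binds antibodies and takes them, with the protein they hold, to the proteasome, so Trim-away depletes a protein and not its mRNA. Since the control received buffer and no other antibody, an effect of ZP3 depletion and an effect of an antibody bound to TRIM21 cannot be told apart. The labels do not say whether the pools came from separate collections, and p-values then measure only how far these pools scatter, which may be technical scatter.

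Autophagy encloses cytoplasm in a double membrane and delivers it to the lysosome. The ULK kinase complex starts the process, a class III PI3-kinase complex marks the membrane with phosphatidylinositol 3-phosphate, ATG9 and ATG2 bring lipid, and the conjugation enzymes ATG3, ATG5, ATG7, ATG10, ATG12 and ATG16L1 couple the ubiquitin-like ATG8 proteins (LC3 and GABARAP) to the membrane, where cargo receptors bind them. In mice autophagy is induced soon after fertilization, and embryos that lack ATG5 of both maternal and paternal origin stop before the blastocyst stage, which has made Atg5 the reference gene for autophagy in the early embryo.

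Library totals were 15291000 to 20005724 reads, and levels are in RPKM (reads scaled to exon length and to the library total), which may be compared between genes. The deposited columns of buffer controls 2 and 3 held the mean of buffer control 1 and a further library each, and all values given here are from the separated libraries. Trim21, whose sequence the injected mRNA carries, took 14.6% to 18.1% of reads in the control libraries and 9.12% to 11.0% in those of ZP3 Trim-away, and Zp3 mRNA stood at 31.3 to 55.6 RPKM and 46.5 to 58.9 RPKM. All 15 oocyte and zygote markers were above 0 in every library. Markers of cumulus and granulosa cells, the other cells that surround an egg, were summed over 13 genes. The sums were 8.89 to 20.5 RPKM in the control pools, against 20.2 to 29.7 RPKM in ZP3 Trim-away, with overlap. Of the 13, 5 (among them Foxl2, Inha and Cyp11a1) were at 0 in all controls, and Foxl2 was also at 0 in 2 Trim-away pools. Of the 5 tested, 4 had positive log2 fold changes. The other was Cyp19a1, the highest of the 13, at 9.95, 8.04 and 10.0 RPKM in the controls, against 6.43, 6.13 and 4.60 RPKM in ZP3 Trim-away. The oocyte markers summed to 8225 to 9922 RPKM in the control pools, against 11042 to 12904 RPKM in ZP3 Trim-away, and 13 of the 15 had positive log2 fold changes. The part of either marker list in the results below was not tested.

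The autophagy genes were expressed over a wide range in these zygotes, and Atg5 stood far above the rest. Atg5 (ENSMUSG00000038160) took 38.9% to 47.3% of the summed RPKM of the 36 genes in the control pools and 46.6% to 48.8% in the Trim-away pools, and its level lay at the 98.5 percentile of all tested genes. Of the 36 genes, 7 averaged 10 RPKM or more (mean of 6 libraries: Atg5, Tax1bp1, Nbr1, Atg101, Atg14, Atg12 and Atg4b), 22 stood between 1 and 10 RPKM, and 7 stood below 1 RPKM. The last 7 (Atg2a, Atg2b, Wipi2, Atg3, Atg4c, Atg4d and Gabarapl1) were not tested, which left 29. The sum over the 36 genes was 436, 439 and 482 RPKM in buffer controls 1, 2 and 3, against 588, 603 and 564 RPKM in ZP3 Trim-away 1, 2 and 3. All 3 Trim-away pools were thus above all 3 controls, and this was also so without Atg5 (240 to 266 against 301 to 316 RPKM). Fewer zygotes with a transcript and fewer copies in each zygote cannot be told apart in such pools. The summed oocyte markers were likewise higher in all Trim-away pools. So was the sum over all tested genes, at 285083 to 293431 RPKM in the controls, against 300202 to 313952 RPKM in ZP3 Trim-away. The last sum includes Trim21 itself, which took a smaller share of reads in ZP3 Trim-away. With Trim21 left out of the library totals, the median log2 fold change was 0.13 over the 10438 genes then tested, against 0.22 with it. That of the autophagy genes (31 then tested) was 0.26, against 0.32. The part of Trim21 in the sums themselves was not tested.

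**Figure D1:**
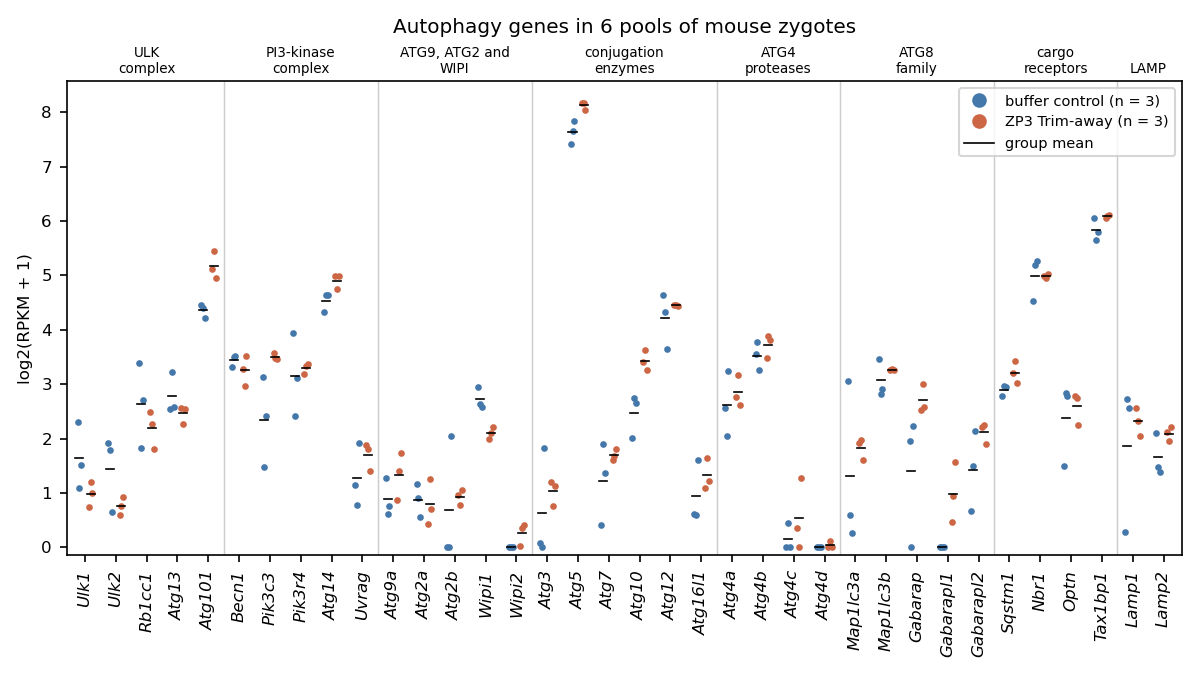
Level of each of the 36 autophagy genes as log2(RPKM + 1) on the vertical axis, 1 point for each pool, with the genes grouped by role on the horizontal axis and a black line at each group mean (n = 3 buffer control and n = 3 ZP3 Trim-away pools). Atg5 stands highest, and the 3 Trim-away points lie above the 3 control points for Atg101, Pik3c3, Atg14, Atg5, Atg10, Gabarap and Sqstm1 (and for Wipi2 and Gabarapl1, at 0 in all controls) and below them for Wipi1.

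None of the 29 tested autophagy genes passed the threshold of an adjusted p of 0.05 (limma on log2(RPKM + 1), two-sided, Benjamini-Hochberg adjustment over all 9965 genes tested), in either direction, against 0.632% of all tested genes (0.592% higher and 0.0401% lower in ZP3 Trim-away). The smallest adjusted p was 0.0669, for Atg101. At an unadjusted p under 0.05, 5 genes were higher in ZP3 Trim-away (17.2%, against 15.8% of all tested genes) and 1 was lower (3.4%, against 3.7%). The groups did not overlap, with all 3 Trim-away pools higher, for 7 genes (24.1%, against 20.3%), and with all 3 lower for 1 gene (3.4%, against 6.34%). These shares were near those of all genes. The median log2 fold change of the 29 was 0.32, and that of all tested genes was 0.22, so a positive sign by itself set no gene apart: 22 of the 29 were positive (75.9%, against 67.3% of all tested genes), and 19 of the 29 lay above the median of all genes. Another scaling moved the median of all genes, to 0.05 with median ratio scaling, but the autophagy genes then stood at 0.15, a distance of 0.09 against 0.10 before.

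**Figure D2:**
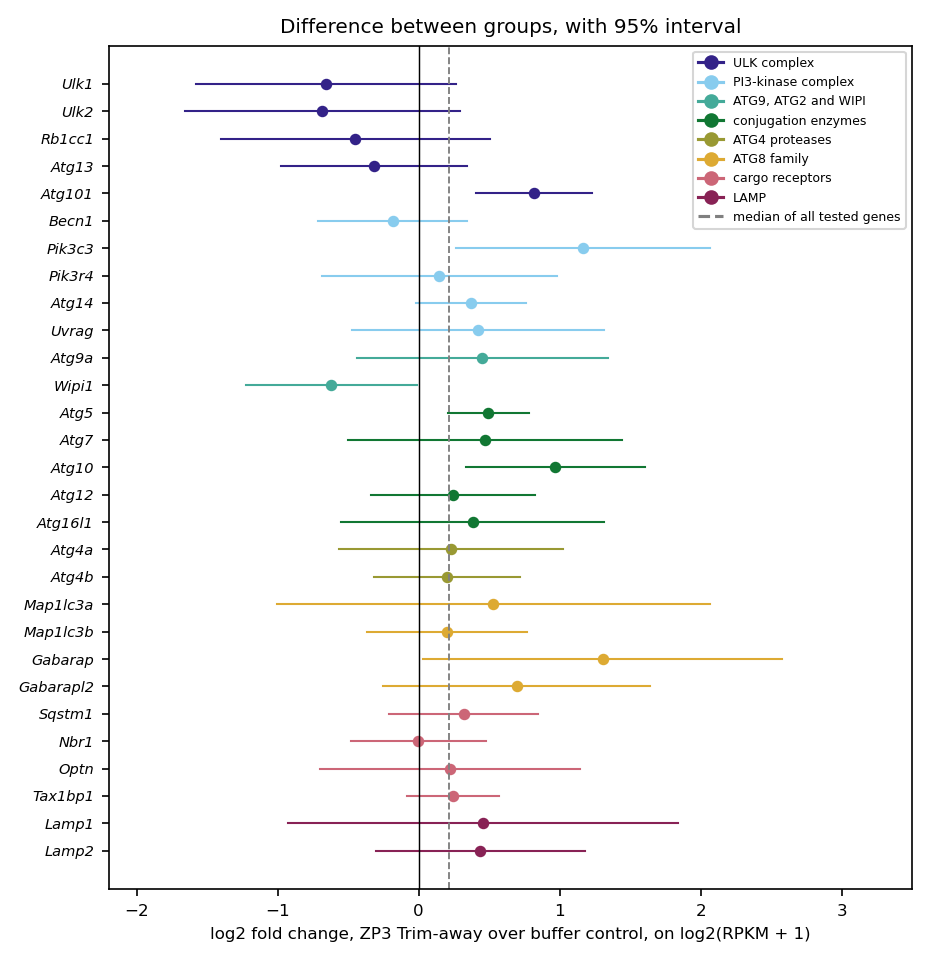
Log2 fold change of the 29 tested genes on the log2(RPKM + 1) scale (points, horizontal axis; ZP3 Trim-away over buffer control, n = 3 each) with 95% intervals from limma (lines), coloured by role. The dashed line is the median of all tested genes (0.22); 4 of the 5 ULK complex genes lie to the left of 0 and Atg101 to the right at 0.82, and the 4 tested ATG8 family genes lie to the right of 0.

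The promoters of Atg5, Atg14, Atg7, Atg3 and Lamp1 hold the word CACGTG, the core of the E-box that the lysosome and autophagy factors TFEB and TFE3 bind. They are shown because no other promoter matched to the list holds the word. RefSeq promoters (GRCm38.p6; 250 bases before to 50 after the start of the gene) matched 31 of the genes, with 37 promoters in all, and CACGTG, which reads the same on both strands, was in 5 of the 37 (13.5%) against 7.15% of 32851 promoters of all genes. The longer word TCACGTG, searched on both strands and always overlapping a CACGTG, was in 4 of the 37 (10.8%) against 3.77%. A match describes the letters in the window and no binding. The sequences run 5′ to 3′ along the strand of the gene, with each CACGTG in capitals.
Atg5: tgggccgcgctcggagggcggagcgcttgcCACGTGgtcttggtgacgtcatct
Atg14: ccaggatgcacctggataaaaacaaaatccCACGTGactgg
Atg7: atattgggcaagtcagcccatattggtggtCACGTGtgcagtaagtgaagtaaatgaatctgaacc
Atg3: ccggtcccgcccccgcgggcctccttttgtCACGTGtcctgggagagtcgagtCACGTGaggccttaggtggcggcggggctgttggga
Lamp1: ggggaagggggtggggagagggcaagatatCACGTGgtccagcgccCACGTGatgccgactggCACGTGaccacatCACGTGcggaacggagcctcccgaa

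The Atg5 stretch lies at chr10:44268295-44268348 on the plus strand, with its word 14 bases before the start, and is the only one of the 5 without the longer word. That of Atg14 lies at chr14:47568425-47568465 on the minus strand, with the word beginning 1 base before the start. That of Atg7 lies at chr6:114670934-114670999, that of Atg3 at chr16:45158705-45158793 with 2 words, and that of Lamp1 at chr8:13159070-13159170 with 4 words between 61 and 15 bases before the start, all on the plus strand. The 4 of these genes that were tested all had positive log2 fold changes (0.37 to 0.49, median 0.47). Of the 19 tested genes with a matched promoter that lacks the word, 14 were positive (median 0.23). The other tested autophagy genes had no matched promoter and are in neither count. Of all tested genes 67.3% were positive, with a median of 0.22. A link between the word and the log2 fold changes was not tested. Without buffer control 1, Lamp1 was at -0.33 and Atg7 at 0.07, so the signs of the 4 rest partly on that library. None of the 4 passed the test.

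The ULK complex, which receives the signals of mTORC1 and AMPK, was the group with the most negative values, apart from its subunit ATG101. Atg101 (ENSMUSG00000037204), the partner that stabilizes ATG13, was at 20.8, 20.2 and 17.7 RPKM in buffer controls 1, 2 and 3, against 33.9, 42.7 and 29.9 RPKM in ZP3 Trim-away 1, 2 and 3. The lowest Trim-away pool was well above the highest control. Its means were 19.6 ± 1.68 and 35.5 ± 6.53 RPKM (SD, n = 3 each), a log2 fold change of 0.82 ± 0.18 SE (limma adjusted p = 0.0669).

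Atg13 itself, the adaptor subunit, stood at 6.05 ± 2.02 and 4.53 ± 0.609 RPKM, Rb1cc1, which encodes the scaffold FIP200, at 5.84 ± 3.45 and 3.65 ± 1.05 RPKM, and the kinases Ulk1 and Ulk2 at 2.30 ± 1.46 and 0.986 ± 0.309 RPKM and at 1.92 ± 1.19 and 0.699 ± 0.188 RPKM. Their log2 fold changes of -0.32, -0.45, -0.66 and -0.68 did not pass, and for each of the 4 the groups overlapped. The values moved with the controls used. Without buffer control 1 the log2 fold change was -0.08 for Rb1cc1 and -0.32 for Ulk1, and without buffer control 2 it was -0.86 and -0.93. That of Atg13 was -0.09 without buffer control 2. For Ulk2 it was -0.45, -0.52 and -1.09 without buffer controls 1, 2 and 3, and so did not rest on 1 of them. Summed over all 5 genes, Atg101 included, the complex stood at 30.6 to 41.7 RPKM in the controls, against 39.2 to 52.3 RPKM in ZP3 Trim-away, with overlap. The RPKM of Atg101 over that of Atg13 was 4.33, 2.41 and 3.56 in the controls, against 6.89, 11.1 and 6.17 in ZP3 Trim-away. This ratio within each pool, which no scaling of the library changes, was higher in every Trim-away pool than in every control. A trend with exon length, described below, can change it, and Atg101 is the shorter gene (1597 against 4368 bases).

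In the PI3-kinase complex the catalytic subunit and ATG14, the subunit that directs the complex to autophagy, had the higher values in ZP3 Trim-away. Pik3c3, which encodes the lipid kinase VPS34, was at 7.80, 1.78 and 4.30 RPKM in the controls, against 10.9, 10.2 and 10.1 RPKM in ZP3 Trim-away. The groups did not overlap, and the controls spread over a wide range while the Trim-away pools lay close together. The means were 4.63 ± 3.03 and 10.4 ± 0.432 RPKM, with a log2 fold change of 1.17 ± 0.40 SE (95% interval 0.27 to 2.07; limma adjusted p = 0.160), and without buffer control 2 the log2 fold change was 0.73.

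Atg14 was at 19.0, 23.9 and 23.8 RPKM in the controls, against 30.8, 25.8 and 30.6 RPKM in ZP3 Trim-away, with no overlap but a gap of little width between buffer control 2 and Trim-away 2 (log2 fold change 0.37 ± 0.17 SE, limma adjusted p = 0.275). It was the most abundant gene of this complex. Becn1, which encodes the Beclin subunit shared by all forms of the complex, stood at 9.90 ± 0.834 and 8.68 ± 1.83 RPKM, Pik3r4, the regulatory subunit VPS15, at 8.78 ± 5.14 and 8.87 ± 0.658 RPKM, and Uvrag, which takes the place of ATG14 in the endosomal form, at 1.57 ± 1.07 and 2.28 ± 0.549 RPKM. For these 3 the groups overlapped. The ratio of Atg14 to Becn1 was 2.13, 2.32 and 2.27 in the controls, against 3.52, 3.78 and 2.92 in ZP3 Trim-away, and that of Pik3c3 to Pik3r4 was 0.542, 0.414 and 0.564 against 1.34, 1.12 and 1.07. Both ratios were higher in every Trim-away pool, whereas the ratio of Atg14 to Uvrag overlapped (8.58 to 33.3 against 10.2 to 18.5). In each ratio the first gene is the shorter: Atg14 has 4322 bases of exon, Becn1 7065 and Uvrag 9035, and Pik3c3 has 4466 against 9660 for Pik3r4. With a trend in exon length removed (described below), the log2 fold change was 0.39 for Pik3r4 in place of 0.15 and -0.02 for Becn1 in place of -0.19. Those of Pik3c3 and Atg14 were then 1.21 and 0.41. The part of length in the ratios was not tested. Reads of Becn1 are uncertain, since 33.9% of the 72-base stretches of its transcripts also occur in transcripts of Cntd1 on the opposite strand, and no source says that the counting used strand. Those of Uvrag are uncertain too. Of its stretches 15.7% occur in other annotated transcripts, most of them in Gm45187 on the opposite strand.

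Among the genes for lipid supply and membrane expansion, Wipi1, whose product reads phosphatidylinositol 3-phosphate on the forming membrane, was the 1 autophagy gene with all Trim-away pools lower. It was at 6.74, 5.18 and 5.0 RPKM in the controls, against 3.00, 3.29 and 3.60 RPKM in ZP3 Trim-away. Every Trim-away pool lay below every control, with means of 5.64 ± 0.959 and 3.30 ± 0.304 RPKM (log2 fold change -0.62 ± 0.27 SE, limma adjusted p = 0.246). Its paralog Wipi2, which recruits ATG16L1, was listed at 0 in all controls and gave 3, 47 and 52 reads in ZP3 Trim-away 1, 2 and 3 (0.0181, 0.283 and 0.323 RPKM). A count of 0 reads allows up to 3 reads, which for Wipi2 is 0.0142 to 0.0186 RPKM over the libraries, so Trim-away 1 stood at that limit.

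Atg9a, the transmembrane protein of the seed vesicles, stood at 0.886 ± 0.479 and 1.60 ± 0.763 RPKM and Atg2a, a lipid transfer protein, at 0.863 ± 0.384 and 0.783 ± 0.536 RPKM, with overlap for both. Values of Atg9a are uncertain, since 28.95% of its 72-base stretches occur in other annotated transcripts, most of them in Gm29253 on the same strand. Atg2b, the other lipid transfer protein, gave 0, 0 and 731 reads in buffer controls 1, 2 and 3 and 149 to 223 reads in ZP3 Trim-away. The controls thus ranged from no read to the highest level of all 6 pools.

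All 5 tested conjugation genes had positive log2 fold changes (median 0.47, against 0.22 for all genes), and none passed the test. Atg5, whose product joins with ATG12 in the ligase that places ATG8 on the membrane, was at 169, 199 and 228 RPKM in buffer controls 1, 2 and 3, against 287, 287 and 263 RPKM in ZP3 Trim-away 1, 2 and 3. The Trim-away pools were all higher. The values rest on 7398 to 10622 reads in each library, so that counting error is small beside the spread between pools, and none of the 72-base stretches of its transcripts occurs in another annotated gene. The means were 199 ± 29.5 and 279 ± 13.9 RPKM, with a log2 fold change of 0.49 ± 0.13 SE (95% interval 0.20 to 0.78; limma adjusted p = 0.0875).

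Atg10, the enzyme that transfers ATG12 to ATG5, was at 3.01, 5.67 and 5.29 RPKM in the controls, against 9.61, 11.4 and 8.64 RPKM in ZP3 Trim-away. Again no control reached the lowest Trim-away pool (log2 fold change 0.97 ± 0.28 SE, limma adjusted p = 0.114). Atg12, the ubiquitin-like partner itself, was at 24.0, 19.2 and 11.6 RPKM in the controls, against 20.9, 21.0 and 20.8 RPKM in ZP3 Trim-away. Here the Trim-away pools lay within the range of the controls, and the ratio of Atg5 to Atg12 overlapped too (7.05 to 19.8 against 12.6 to 13.7). Atg7, the activating enzyme, stood at 1.54 ± 1.20 and 2.24 ± 0.224 RPKM and Atg16l1, which anchors the ligase to the membrane, at 1.03 ± 0.880 and 1.53 ± 0.537 RPKM. Atg3, which carries ATG8 to its lipid, gave 3, 0 and 139 reads in the controls and 34 to 65 reads in ZP3 Trim-away. In RPKM, Atg5 thus stood at over 100 times Atg16l1, its partner in the same ligase, in every library (ratios of 112 to 388). Atg16l1 rests on 94 to 342 reads per library. The ratio also depends on the exon lengths used, 9628 bases for Atg16l1 and 2352 for Atg5.

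The ATG4 proteases, which trim ATG8 proteins before conjugation and free them afterwards, were carried by Atg4b and Atg4a. Atg4b was at 10.7, 12.7 and 8.54 RPKM in the controls, against 10.2, 13.8 and 13.1 RPKM in ZP3 Trim-away, and Atg4a stood at 5.52 ± 2.73 and 6.30 ± 1.49 RPKM. The groups overlapped for both, with log2 fold changes of 0.20 and 0.23, at the level of the median of all genes. Atg4a shares 42.3% of its 72-base stretches with other annotated transcripts, most of all with Atg4a-ps, and its values are uncertain. Atg4c was at 0 in 2 of the controls and in 1 Trim-away pool, and Atg4d was at 0 in 5 libraries, with 9 reads in Trim-away 2.

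In the ATG8 family the sum of the GABARAP genes was higher in every Trim-away pool, and the sum of the LC3 genes overlapped. Gabarap was at 2.86, 0 and 3.71 RPKM in the controls, against 4.72, 7.0 and 5.0 RPKM in ZP3 Trim-away. No control reached a Trim-away pool, but the log2 fold change of 1.31 ± 0.56 SE (limma adjusted p = 0.245) rests partly on the 0 of buffer control 2, and without that control it was 0.61. Gabarapl1 was at 0 in all controls and gave 12, 29 and 60 reads in ZP3 Trim-away (0.379, 0.916 and 1.95 RPKM), where 3 reads would be 0.0745 to 0.0975 RPKM over the libraries. Gabarapl2 stood at 1.93 ± 1.42 and 3.39 ± 0.574 RPKM, with overlap. Of the 72-base stretches, those of Gabarapl1 occur in part (20.8%) in a gene on the opposite strand and those of Gabarapl2 in part (9.78%) in 3 pseudogenes, whereas Gabarap shares none.

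The 3 GABARAP genes together were at 3.44, 1.81 and 7.13 RPKM in the controls, against 8.76, 11.7 and 9.68 RPKM in ZP3 Trim-away, with no overlap. Map1lc3b, the LC3 gene used most often as a marker of autophagosomes, was at 10.1, 6.10 and 6.49 RPKM in the controls, against 8.60, 8.68 and 8.60 RPKM in ZP3 Trim-away, inside the range of the controls. Map1lc3a gave 161, 12 and 4 reads in the controls and 37 to 54 reads in ZP3 Trim-away. Both LC3 genes together stood at 10.2 ± 6.23 RPKM (controls) and 11.2 ± 0.493 RPKM (ZP3 Trim-away). A difference of the branches was not tested. The 3 GABARAP genes have 1844 to 2325 bases of exon, Map1lc3b has 7517 and Map1lc3a 1181. The part of exon length in these sums was not tested.

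Of the 4 cargo receptors, Tax1bp1 and Nbr1 were among the 7 genes above 10 RPKM, and none of the 4 passed the test. Tax1bp1, a receptor for ubiquitinated cargo, was the highest of them, at 65.9, 49.1 and 54.9 RPKM in the controls, against 65.3, 67.1 and 68.1 RPKM in ZP3 Trim-away. Buffer control 1 lay among the Trim-away pools, and the log2 fold change was 0.25 ± 0.14 SE (95% interval -0.08 to 0.57). Sqstm1, which encodes p62, was at 5.84, 6.81 and 6.67 RPKM in the controls, against 8.21, 9.74 and 7.07 RPKM in ZP3 Trim-away. The groups did not overlap, by a narrow gap between buffer control 2 and Trim-away 3 (log2 fold change 0.32 ± 0.23 SE, limma adjusted p = 0.484), and 14.7% of its 72-base stretches also occur in Mrnip on the opposite strand. Nbr1, the p62 relative, stood at 31.7 ± 8.38 and 30.8 ± 0.889 RPKM (log2 fold change -0.00, 95% interval -0.48 to 0.48), and Optn, a receptor known from mitophagy, at 4.61 ± 2.42 and 5.13 ± 1.21 RPKM.

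Lamp1 and Lamp2, which encode the main glycoproteins of the lysosomal membrane, had log2 fold changes of 0.46 ± 0.61 SE and 0.44 ± 0.33 SE and overlapped between the groups. Lamp1 was at 0.221, 5.59 and 4.90 RPKM in the controls, against 4.94, 4.02 and 3.13 RPKM in ZP3 Trim-away. Its positive sign came from the low value of buffer control 1, and without that control the log2 fold change was -0.33. Lamp2 stood at 2.23 ± 0.939 and 3.27 ± 0.373 RPKM.

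The spread between pools was larger in the controls. Over the 29 tested genes the median SD of log2(RPKM + 1) was 0.51 among the controls and 0.20 among the Trim-away pools, and it was larger in the controls for 25 of the 29. The autophagy genes shared this with all tested genes, whose medians were 0.44 and 0.20 and whose SD was larger in the controls for 8130 of 9965. Examples are Atg12, Map1lc3b and Pik3c3, with SDs of 0.51, 0.35 and 0.83 in the controls, against 0.01, 0.01 and 0.05 in ZP3 Trim-away. The widest were Map1lc3a, Lamp1 and Gabarap in the controls, with SDs of 1.53, 1.36 and 1.22. The number of genes above 0 was 13202 to 14501 per control library and 18794 to 20316 per Trim-away library, although the controls had more reads. Among the 36 autophagy genes, 7 had a 0 in at least 1 control and 2 in at least 1 Trim-away pool. The part of this difference in the values of the low genes was not tested.

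**Figure D3:**
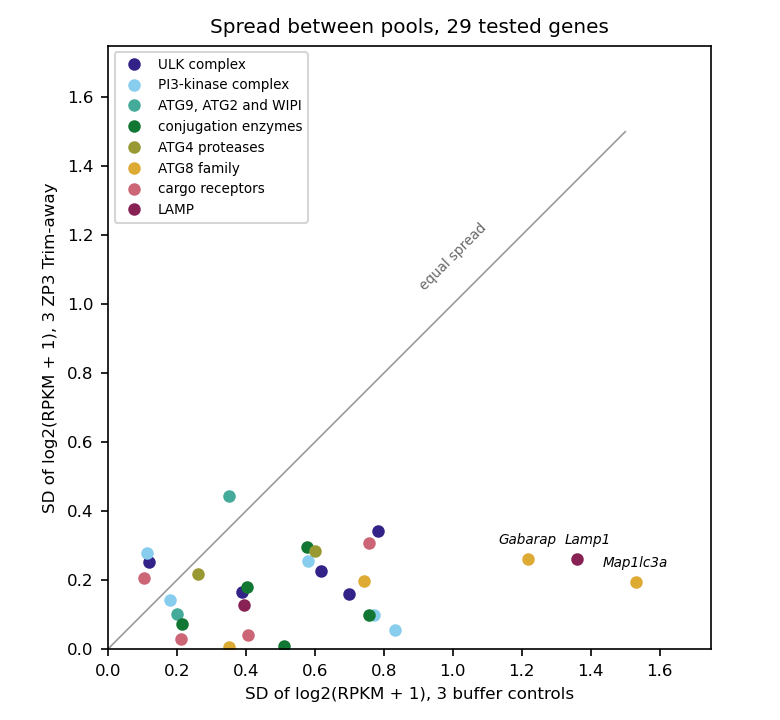
SD of log2(RPKM + 1) between the 3 ZP3 Trim-away pools (vertical axis) against that between the 3 buffer control pools (horizontal axis) for the 29 tested autophagy genes, coloured by role, with a grey line of equal spread. Of the 29 points, 25 lie under the line, and Map1lc3a, Lamp1 and Gabarap lie farthest to the right.

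Log2 fold changes were lower in longer genes. Across the 29 autophagy genes Spearman's rho between exon length and log2 fold change was -0.51, and across 9858 tested genes with a length it was -0.31 (genes share the same 6 libraries and are not replicates, and no p is given). Atg101, Atg10 and Gabarap had exon lengths of 1597, 1718 and 1844 bases, whereas Rb1cc1 had 14690, Ulk1 6488 and Ulk2 5977 bases. With the length trend removed the median of the autophagy genes was 0.39, against 0.23 for all genes, and none passed the test. There the log2 fold change of Rb1cc1 was -0.12 in place of -0.45, that of Ulk1 -0.51 in place of -0.66 and that of Atg101 0.64 in place of 0.82 (limma adjusted p = 0.127).

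Other genes of the pathway and of the lysosome were compared from lists of 117 genes, of which 116 had values and 80 were tested. Of the 80, 61 had positive log2 fold changes, with a median of 0.24 against 0.22 for all genes, and 1 passed the test, against 0.632% of all tested genes. This was Psap, which encodes the precursor of the saposins, activators of lipid breakdown in the lysosome. Psap was at 3.91, 2.30 and 5.28 RPKM in the controls, against 13.6, 38.5 and 21.8 RPKM in ZP3 Trim-away, higher in all 3 pools and by a factor that varied among them. It rose by 2.34 ± 0.39 SE on the log2 scale (limma adjusted p = 0.0407), and over the 6 fits that each left out 1 library the adjusted p was 0.0467 to 0.271, past the threshold only without buffer control 3. The call was also lost with a pseudocount of 0.1, no filter, each of the other scalings, the length trend removed and the replicate block (adjusted p of 0.0522 to 0.173).

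All 10 tested genes of lysosomal hydrolases and membrane proteins were positive (median 0.61), as were 15 of the 16 subunits of the V-ATPase, the proton pump that acidifies the lysosome (median 0.45). Atp6v1c1, a subunit of its cytosolic part, had the second smallest p of these lists, at 32.4, 48.0 and 29.4 RPKM in the controls, against 75.1, 74.4 and 71.2 RPKM in ZP3 Trim-away. The groups were far apart and the Trim-away pools close together (log2 fold change 1.02 ± 0.19 SE, limma adjusted p = 0.0518). Vps41, a subunit of the HOPS tethering complex, followed with 3.74 ± 0.666 and 9.12 ± 1.08 RPKM (1.10 ± 0.25 SE, adjusted p = 0.0702).

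The genes of fusion with the lysosome were divided, with 5 of 11 positive and a median of -0.05. Vps16, another HOPS subunit, stood at 2.43 ± 0.451 and 0.983 ± 0.305 RPKM, and Fyco1, which moves autophagosomes along microtubules, at 19.9 ± 6.30 and 12.3 ± 1.84 RPKM. Foxo1, a transcription factor of autophagy genes, stood at 15.3 ± 4.34 and 9.64 ± 1.97 RPKM. These 3 had the smallest p among the genes with lower values (log2 fold changes of -0.79, -0.61 and -0.60), and none passed (adjusted p of 0.233 to 0.245, limma). Genes of mTORC1, AMPK and their regulators had a median of 0.19. Those of initiation and membrane regulators, of mitophagy and ER-phagy and of the MiT/TFE and FOXO factors had medians of 0.27, 0.18 and -0.06. No gene of these lists passed the threshold. The last median covers only 3 of 6 genes (Tfe3, Foxo1 and Foxo3). Mitf and Tfec averaged below 1 RPKM and were not tested. Both were higher in all Trim-away pools (Mitf 0 to 0.0557 against 1.08 to 1.42 RPKM, Tfec 0.375 to 0.720 against 0.909 to 1.19 RPKM), and Zkscan3, also not tested, overlapped.

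**Figure D4:**
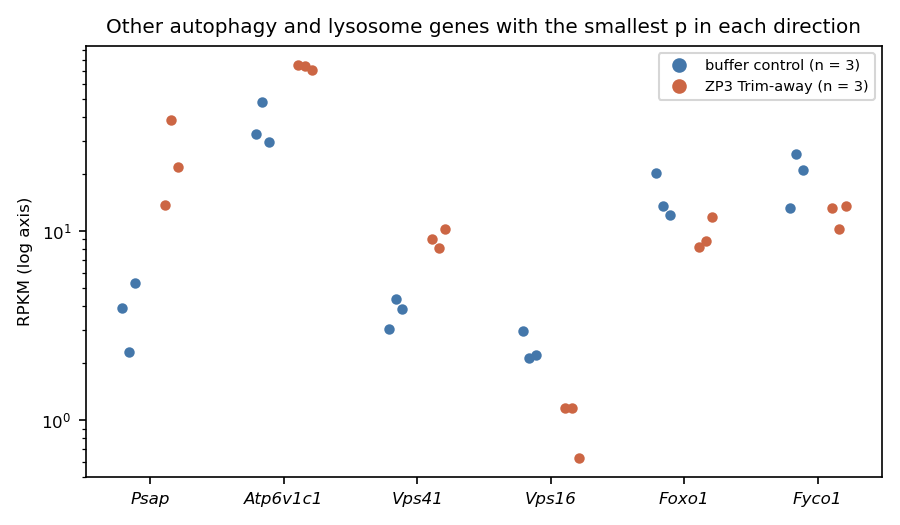
RPKM on a log axis of the 6 genes from the other autophagy and lysosome lists with the smallest p in each direction, 1 point for each pool (n = 3 buffer control and n = 3 ZP3 Trim-away). Psap, Atp6v1c1 and Vps41 are higher in all Trim-away pools, with 38.5 RPKM of Psap in Trim-away 2 as the farthest point, and Vps16 and Foxo1 are lower in all of them, while the groups of Fyco1 overlap.

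How many autophagy genes passed the test depended on the filter and on the control columns. With the test limited to genes that average 10 RPKM or more, Atg101 and Atg5 passed, 2 of the 7 autophagy genes then tested (limma adjusted p = 0.0316 and 0.0456), where 10.6% of all genes did. With the columns as deposited, which share buffer control 1 and so have a narrower spread by construction, 12 of the 29 passed, where 37.3% of all genes did. In none of the 6 fits that left out 1 library did any of the 29 pass.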

How the data were processed

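The authors deposited 1 table of RPKM values for 6 libraries of oligo-dT primed cDNA. Per the labels and the methods, reads were checked (FastQC 0.11.9), trimmed (Trimmomatic), aligned (HISAT2) and counted per gene. The sources used here do not give the other versions, and name both GRCm39 (labels) and GRCm38. Exon lengths came from GENCODE M21 on GRCm38.

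The autophagy genes and all other lists were chosen with earlier results of these data known. Buffer controls 2 and 3 were taken as 2 times the deposited column minus buffer control 1, since neither column was below 0.5 times buffer control 1 in any of 13202 genes, and 2059 and 2090 genes lay exactly there. The separated values gave whole reads within 0.01 for 95.0% to 96.0% of values, and limits from counts cover counting error only.

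Groups were compared with limma 3.58.1 (R 4.3.3; trended prior) on log2(RPKM + 1), which understates changes of low genes, for genes averaging 1 RPKM or more. The fit was tested on simulated data. Values of every library are given for genes with an unadjusted p under 0.05, with groups that do not overlap, or with the highest mean of their role, and of the other lists for the gene past the threshold. The 3 smallest p in each direction are named there. Atg12, Cyp19a1, Inha, Cyp11a1, Tnfaip6, Mitf, Tfec, reads of low genes, sums and ratios were added after their values were seen. The alternatives were the columns as deposited, a pseudocount of 0.1, other filters and scalings, removal of the length trend, the replicate block, and leaving out each library.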

Additional observations from a re-analysis of the deposited data

How the results depend on the processing

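The main limits are 3 pools in each group, controls that vary more than the Trim-away pools, 2 control columns that had to be separated, and low reads for the 22 genes between 1 and 10 RPKM. Over 15 alternatives, 21 of the 29 tested autophagy genes kept the sign of their log2 fold change wherever they were tested, and 8 did not. The 0 autophagy genes past the threshold became 2 when only genes averaging 10 RPKM or more were tested and 12 with the columns as deposited and stayed 0 under the other settings (limma; 6 genes at an unadjusted p under 0.05 as reported). The 1 call among the other autophagy and lysosome genes became 4 and 30 under those 2 settings, and 0 with a pseudocount of 0.1, no filter, median ratio scaling, trimmed mean scaling, Trim21 left out of the totals, and the replicate block; leaving out 1 library gave 0 to 3. With the length trend removed it stayed at 1, but the gene was Atp6v1c1 and Psap was at an adjusted p of 0.0522 (limma). The calls among all genes (63, of which 59 higher) were 3707 with the columns as deposited, 368 among genes averaging 10 RPKM or more, 19 with a pseudocount of 0.1, 0 with no filter (limma; 3323 at an unadjusted p under 0.05), 12 with median ratio scaling (9 higher), 15 with trimmed mean scaling (12 higher) and 15 with Trim21 left out. Leaving out 1 library gave 0 (each Trim-away pool; limma, 1130 to 1268 at an unadjusted p under 0.05) to 279 (buffer control 2; 140 without buffer control 1 and 132 without 3). The median of the autophagy genes moved to 0.15 with median ratio scaling.

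Signs turned in these cases, none past the threshold, and the cause was not tested. With the columns as deposited the log2 fold change of Pik3r4 was -0.33, of Atg12 -0.0046, of Map1lc3a -0.71, of Map1lc3b -0.023 and of Nbr1 0.20. Pik3r4 was at -0.032 with median ratio scaling and Nbr1 at 0.16 with the length trend removed. Over the fits that left out 1 library, values ranged from -0.21 to 0.46 for Optn, -0.33 to 0.89 for Lamp1, -0.23 to 0.54 for Pik3r4, -0.058 to 0.54 for Atg4a, -0.24 to 0.13 for Nbr1 and -0.036 to 0.46 for Atg12. With the replicate number as a block, 0 autophagy genes and 0 genes in all passed (limma; 1733 genes at an unadjusted p under 0.05). Samples with the same number did not deviate together (correlations of -0.061, 0.019 and -0.053). With few pools in each group and a wide spread in the controls, this cannot decide whether pools of the same number were collected together.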
